A study of Rattus norvegicus with 15 samples.

Results

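Gene expression in isolated renal proximal tubules was compared between rats given cisplatin at 2 mg/kg and rats given saline. The comparison rests on 6 of the 15 arrays of the series, chosen by their titles, with 3 arrays in each group. The remaining arrays cover tubules after 10 mg/kg and whole kidneys after 10 mg/kg or saline. All animals were male Wistar/ST rats, 8 weeks old. Cisplatin was injected intraperitoneally as a solution of 0.5 mg/mL, and controls received an equal volume of saline. How long after the injection the kidneys were taken is not stated in the labels. Tubules were collected by hand under a microscope, and digoxigenin-labelled cRNA was read by chemiluminescence on a 1-colour array, the Rat Genome Survey array. Whether every array came from its own animal is not stated, so the p-values describe array-to-array spread, which may be technical.

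Cisplatin is a platinum drug that forms adducts with DNA, and its use is limited by injury to the kidney. Cells of the proximal tubule, which reabsorb most filtered solutes, take the drug up and concentrate it. Adducts activate the kinases of the DNA damage response and the transcription factor p53, whose targets include genes that halt the cell cycle. Injured proximal tubule cells are known to lose transporters and metabolic enzymes and to make injury proteins such as KIM-1, encoded by Havcr1, and NGAL, encoded by Lcn2.

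The arrays listed between 26381 and 26547 probes in these 6 files, with median intensities of 261 to 374 at 2 mg/kg and 245 to 470 in saline. Over probes measured on all 15 arrays, the 2 mg/kg arrays correlated with the saline arrays at r = 0.908 to 0.946. Within groups r was 0.919 to 0.967 at 2 mg/kg and 0.921 to 0.933 in saline. Replicates 1 and 2 of the 2 mg/kg group were the closest pair (r = 0.967), with 0 probes of equal intensity. All values below are log2 signals after quantile normalization unless another scale is named, and differences are 2 mg/kg minus saline with the standard error of the fit. A gene name was available for 401 probes, all of them within the 1219 probes of the authors' series table, whose selection rule is not stated and may have used these samples.

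Whether the tubule label holds was not tested here, since most other cell types had no named probe and whole kidneys were not compared. The 9 named markers of proximal segments S1 and S2 had a median difference of 0.14 and a range of -0.40 to 1.10, with members in both directions. Of these, Gatm and Ddc were higher at 2 mg/kg without overlap (22.2%, beside 14.5% of named genes and 6.55% of all probes). The 4 of segment S3 had -0.21, also with members in both directions. Of these, Slc22a7 was lower without overlap (25.0%, beside 6.73% of named genes and 5.59% of all probes). Signals of 2 other S1 and S2 markers follow. Slc5a2, which encodes the sodium-glucose cotransporter of the early proximal tubule, had 17.10, 16.71 and 16.85 at 2 mg/kg, against 16.44, 16.87 and 17.12 in saline. Slc34a1, which encodes the main proximal phosphate cotransporter, had 19.91, 19.77 and 19.48 at 2 mg/kg, against 19.48, 19.67 and 19.91 in saline. Slc5a2 lay at the 99.6 percentile of saline signals over all tested probes, and the groups overlapped for both genes. Markers of glomeruli, distal tubule, collecting duct, endothelium, stroma and erythroid cells had no named probe, so RNA of these cells was not assessed here. Leukocytes were represented by C1qa and C1qc, complement genes of resident macrophages, 2 of the 16 markers listed. C1qa had 11.53, 11.75 and 12.26 at 2 mg/kg, against 12.30, 12.15 and 11.35 in saline. C1qc had 10.72, 10.62 and 11.48 at 2 mg/kg, against 12.06, 11.53 and 10.48 in saline. Both overlapped between groups, with differences of -0.09 ± 0.40 and -0.42 ± 0.43. In tubule RNA, fewer cells of a type and less RNA per cell cannot be told apart.

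No probe distinguished tubules given 2 mg/kg from saline tubules by the test over all probes. With limma over all 15 arrays and a threshold of 0.05, 0 of 26601 probes (0.0%) were called, and 903 (3.39%) fell below it before adjustment. By chance 1330 would be expected to. Fitting only the 6 arrays compared gave 0 calls and 1435 of 26745 probes below the threshold before adjustment. The smallest adjusted p in limma was 0.99991. When probes were split by signal into 4 groups of equal size, differences in the brightest had an SD of 0.33 over probes, and the median standard error of a difference was 0.34. In the same probes the 10 mg/kg differences, which use the same saline arrays, had an SD of 1.01. The plot of these spreads shows that at 2 mg/kg differences between probes were about as large as their own error at every brightness.

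**Figure D1:**
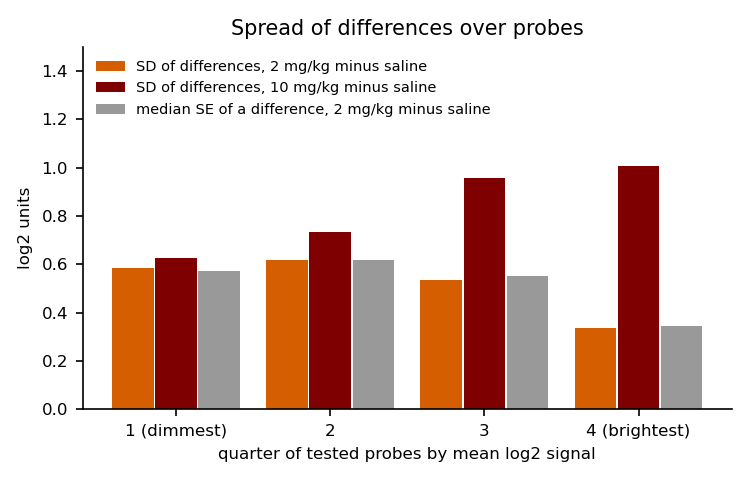
Spread of log2 differences over probes (y axis, log2 units) in 4 equal groups of probes ordered by mean signal (x axis). Orange bars give the SD of differences at 2 mg/kg minus saline, dark red bars that at 10 mg/kg minus saline, and grey bars the median standard error of a 2 mg/kg difference. In the brightest group the orange bar (0.33) matches the grey one (0.34), and the dark red bar reaches 1.01.

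How large a response could have been missed depends on the signal. The 95% interval of the difference lay within 2-fold in either direction for 54.3% of probes in the brightest group, and for 2.36% to 6.95% in the other groups. For named genes it lay within 2-fold in 136 of 401. For the remaining named genes the interval reached past 2-fold on at least 1 side. A missed threshold therefore does not show that the tubules were unaffected at this dose.

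The groups did not overlap in any array for 12.1% of all tested probes, 6.55% higher and 5.59% lower at 2 mg/kg. Among the named genes 58 of 401 (14.5%) were higher without overlap and 27 (6.73%) lower. The whole set of series table probes had 14.4% higher and 7.88% lower, whereas the brightest probes outside it had 5.62% higher and 4.13% lower. The named genes thus share the excess of the set they were drawn from, and that set is not independent evidence of a response. The median difference was 0.12 over named genes and -0.003 over all tested probes. Without scaling these medians were 0.03 and -0.13.

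**Figure D2:**
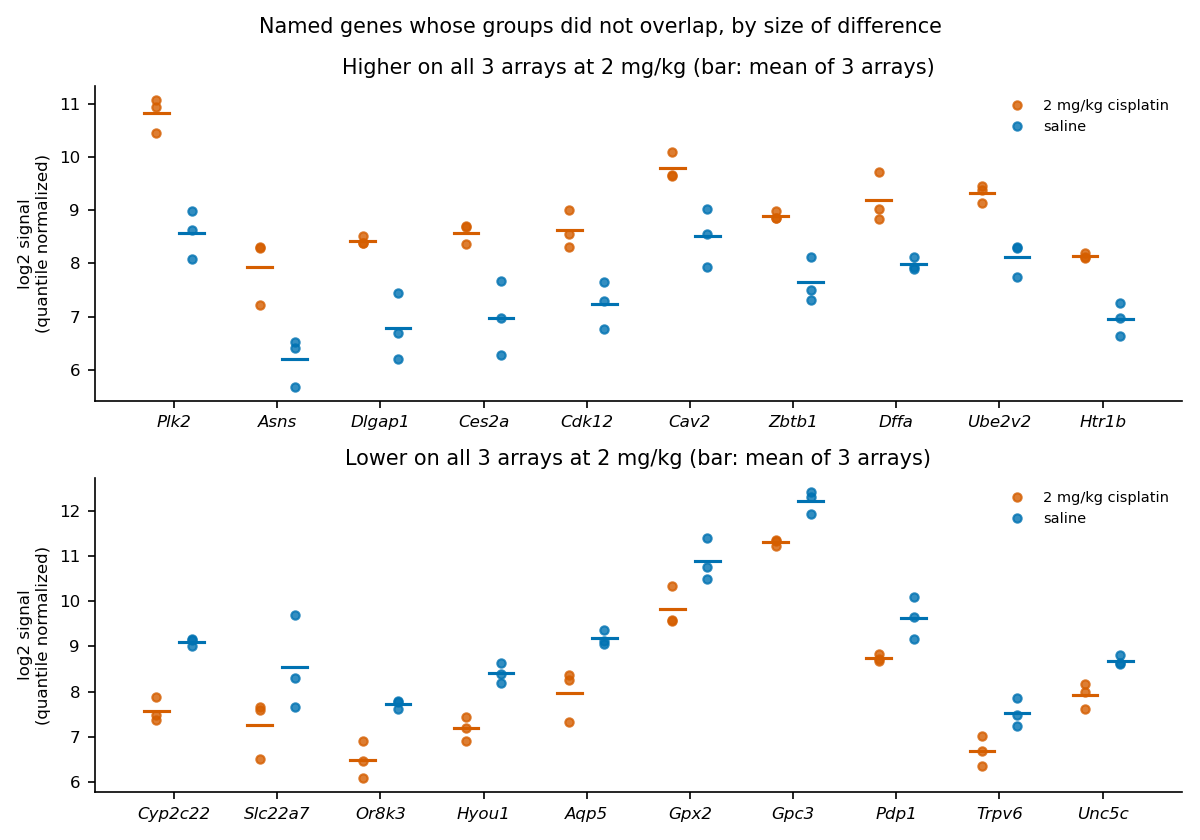
Log2 signal (y axis, quantile normalized) of the 10 named genes with the largest positive and the 10 with the largest negative difference among those whose groups did not overlap (x axis). Dots are single arrays, 2 mg/kg in orange left of saline in blue, and bars are means of 3 arrays. Plk2 stands at 10.45 to 11.07 at 2 mg/kg, against 8.09 to 8.98 in saline. None of these genes passed the adjusted threshold.

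Plk2, which encodes a polo-like kinase induced by p53, had the largest difference of any named gene. It had 10.45, 10.94 and 11.07 at 2 mg/kg, against 8.98, 8.09 and 8.63 in saline. All 3 treated arrays were above all saline arrays, by a difference of 2.26 ± 0.56 or 4.77-fold, with a 95% interval of 1.05 to 3.46 on the log2 scale. It did not pass over all probes (limma adjusted p = 0.99991). In the fit restricted to the authors' series table it was called, at 2.48 ± 0.54 (limma adjusted p = 0.0114). That call is not independent support, since how the table's probes were chosen is not stated and may have used these arrays. Over the other alternatives the limma adjusted p was at least 0.0988. Across the dose series Plk2 averaged 8.57 in saline, 10.82 at 2 mg/kg and 14.49 at 10 mg/kg. The step between doses passed (10 mg/kg minus 2 mg/kg 3.67 ± 0.56, limma adjusted p = 0.00128). Plk2 was named for its large difference at 2 mg/kg, and that choice may enlarge its step from saline.

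Asns, which encodes asparagine synthetase and is a target of the stress-induced factor ATF4, had the largest positive difference after Plk2 among genes whose groups were apart. It had 8.31, 8.30 and 7.21 at 2 mg/kg, against 6.41, 5.68 and 6.52 in saline. The groups were apart, with replicate 3 the lowest of the treated arrays and the difference 1.73 ± 0.455, or 3.33-fold with a 95% interval of 1.69-fold to 6.54-fold. The saline level lay at the 3.63 percentile of tested probes, and with no background measure this fold compares signals only. Over all probes Asns did not pass (limma adjusted p = 0.99991), and in the series table fit it was called at 2.05 ± 0.45 (limma adjusted p = 0.0114). The limit given for the Plk2 call holds here too. At 10 mg/kg it had 10.36, 10.12 and 10.20, above 2 mg/kg by 2.29 ± 0.455 (limma adjusted p = 0.00718). Asns was named by the same rule as Plk2, so its step from saline may be enlarged too.

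Plk2 and Asns were the 2 named genes among the 23 probes called in the series table, where the background of calls was 1.89% of 1219. The other 21 calls have no gene symbol. In all 23 the quantile-normalized groups were apart, which adds no support, since the series table rescales the same intensities. Of all series table probes 14.4% were apart and higher and 7.88% apart and lower. Of the 23, 13 were higher and 10 lower at 2 mg/kg, with sizes of 1.59 to 2.50 on the log2 scale. When the same 1219 probes were taken with quantile normalization, an alternative chosen after seeing the data, 3 were called, and all 3 belonged to the 23. Plk2 and Asns were not among these 3.

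The 250 bases before the RefSeq start sites of both genes (assembly GRCr8) are shown. The reason is that these alone among the named genes were called in any fit, and only in that of the series table. Capitals mark the cAMP response element TGACGTCA, a site bound by CREB and ATF factors. That motif was searched on both strands, as was the core TGATGNAA of the sites bound by ATF4 with C/EBP factors. The Plk2 stretch is chr2:43702286-43702535 on the plus strand, and that of Asns is chr4:36769416-36769665 on the minus strand.
Plk2: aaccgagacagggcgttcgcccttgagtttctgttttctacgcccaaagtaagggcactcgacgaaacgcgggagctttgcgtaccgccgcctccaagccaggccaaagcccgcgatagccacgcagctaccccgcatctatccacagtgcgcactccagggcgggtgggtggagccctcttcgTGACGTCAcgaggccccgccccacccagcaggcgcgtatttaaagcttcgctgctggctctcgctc
Asns: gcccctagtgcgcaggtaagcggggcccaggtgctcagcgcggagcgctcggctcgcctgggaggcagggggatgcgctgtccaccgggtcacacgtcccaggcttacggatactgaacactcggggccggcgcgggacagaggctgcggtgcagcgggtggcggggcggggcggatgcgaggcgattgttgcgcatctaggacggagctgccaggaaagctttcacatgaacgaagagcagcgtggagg
The Plk2 stretch held 1 TGACGTCA, whose first base lies at position -66 counted from the start site, and no TGATGNAA. TGACGTCA was present in 1.59% and TGATGNAA in 3.40% of 33469 promoters of the same length. The Asns stretch held neither motif in this window. These matches describe sequence only.

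The other genes with large positive differences among those apart were mostly of low to middle signal. Dlgap1, a synaptic scaffold gene, had 8.39, 8.52 and 8.38 at 2 mg/kg, against 6.70, 6.20 and 7.43 in saline. Ces2a, a carboxylesterase gene, had 8.70, 8.36 and 8.68 at 2 mg/kg, against 6.98, 7.66 and 6.27 in saline. Cdk12, whose kinase phosphorylates RNA polymerase II and sustains expression of DNA repair genes, had 8.55, 8.32 and 8.99 at 2 mg/kg, against 7.65, 6.76 and 7.29 in saline. These 3 differed by 1.65 ± 0.70, 1.61 ± 0.77 and 1.39 ± 0.71. Dffa, the inhibitor of the caspase-activated DNase, had 9.03, 8.83 and 9.72 at 2 mg/kg, against 7.90, 7.93 and 8.12 in saline. Ube2v2, a ubiquitin-conjugating enzyme variant of DNA damage tolerance, had 9.13, 9.46 and 9.37 at 2 mg/kg, against 8.30, 8.29 and 7.75 in saline. Both were apart by about 1.21, with standard errors of 0.50 and 0.70. Cav2, Zbtb1 and Htr1b completed this set with 1.28 ± 0.47, 1.25 ± 0.70 and 1.18 ± 0.41. None of these 8 genes passed the adjusted threshold against saline, and whether they share a function was not tested. Nor did any pass the test between 10 mg/kg and 2 mg/kg, with limma adjusted p between 0.391 and 0.937.

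Among the lower genes, Cyp2c22, a cytochrome P450 gene, had 7.37, 7.48 and 7.89 at 2 mg/kg, against 9.14, 9.01 and 9.17 in saline. The treated arrays lay below, as the rule that named it requires, by -1.53 ± 0.60. At 10 mg/kg the signals were 9.45, 9.59 and 8.40. Slc22a7, which encodes the organic anion transporter OAT2, had 7.61, 7.66 and 6.52 at 2 mg/kg, against 9.68, 7.67 and 8.30 in saline. Its groups were separated by only the second decimal, with a difference of -1.29 ± 0.55. Gpc3, the gene of the cell surface proteoglycan glypican 3, had 11.34, 11.36 and 11.22 at 2 mg/kg, against 12.30, 11.93 and 12.41 in saline. It was the brightest of these lower genes, at -0.91 ± 0.31. The 10 largest negative differences among genes apart also held the olfactory receptor gene Or8k3 (-1.25 ± 0.68), the water channel gene Aqp5 (-1.19 ± 0.91) and the netrin receptor gene Unc5c (-0.75 ± 0.59). Hyou1, Gpx2, Pdp1 and Trpv6, the others of these 10, are described with their groups or with the doses. None of the 10 passed the adjusted threshold against saline.

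Injury markers overlapped between 2 mg/kg and saline. Of 8 named members 3 were higher and 5 lower, 0 passed the threshold, and 0 were apart, with a median of -0.19. Over all probes 0 passed and only 12.1% were apart in either direction, so these counts are not particular to injury genes. Havcr1 had 9.12, 9.34 and 9.64 at 2 mg/kg, against 8.85, 9.52 and 7.97 in saline, so that the groups overlapped. Its difference had a 95% interval of -0.29 to 1.46. Lcn2 had 7.15, 7.71 and 7.64 at 2 mg/kg, against 8.22, 8.08 and 6.77 in saline, with an interval of -1.28 to 0.89. Spp1, the osteopontin gene, had 14.27, 13.51 and 13.99 at 2 mg/kg, against 13.47, 14.23 and 13.28 in saline. The annexin partner gene S100a10 had 11.42, 11.61 and 12.55 at 2 mg/kg, against 12.79, 12.28 and 11.54 in saline. Between the doses 7 of the 8 members passed the test, all higher at 10 mg/kg, where 2.66% of all probes and 42 of 401 named genes (10.5%) were called higher.

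**Figure D3:**
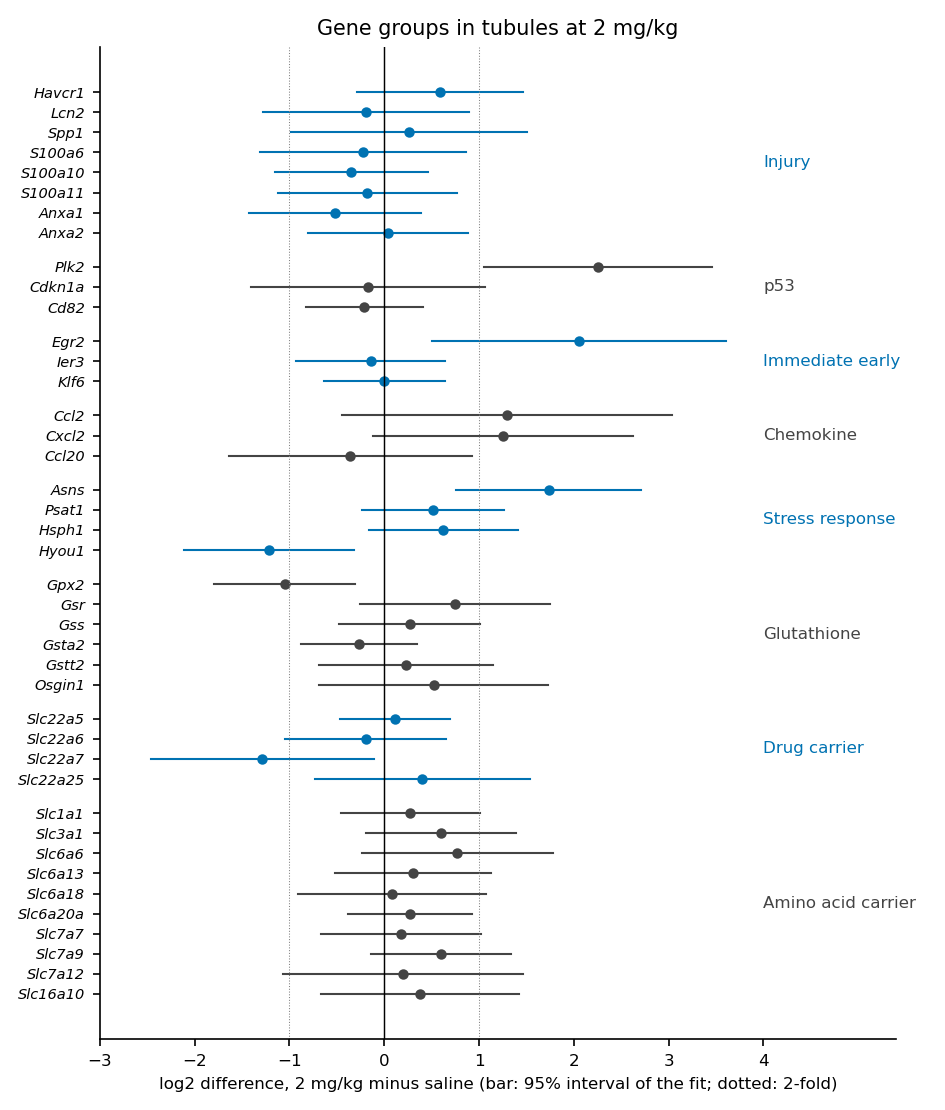
Log2 differences at 2 mg/kg minus saline (x axis) for named members of 8 gene groups (rows), with 95% intervals of the fit as bars and 2-fold marked by dotted lines. Intervals of Plk2 (1.05 to 3.46), Asns (0.76 to 2.71) and Egr2 (0.51 to 3.61) lie above 0 and those of Hyou1, Gpx2 and Slc22a7 below 0, before adjustment over all probes. The injury genes and the amino acid carriers have intervals that include 0.

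The other named p53 targets overlapped between the groups. Cdkn1a, which encodes the cell cycle inhibitor p21, had 8.24, 7.65 and 6.57 at 2 mg/kg, against 8.29, 6.36 and 8.32 in saline. Cd82, a tetraspanin gene, had 12.75, 12.71 and 12.38 at 2 mg/kg, against 12.44, 12.92 and 13.11 in saline. Their differences were -0.17 ± 0.57 and -0.21 ± 0.29. Of the 29 genes on the p53 list only these and Plk2 had a named probe, and none of the 20 genes for DNA repair and damage signalling had one.

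Immediate early genes, the first genes induced by many stimuli, gave an uneven picture. Egr2 had 10.33, 7.61 and 8.80 at 2 mg/kg, against 8.53, 5.87 and 6.17 in saline. Its groups overlapped and its SD was 1.36 and 1.46 within them, so the difference of 2.06 ± 0.72 rests on scattered arrays. Ier3 and Klf6, with smaller SDs, had -0.14 ± 0.37 and 0.003 ± 0.30. Among chemokine genes, Ccl2, a monocyte attractant, had 9.73, 7.56 and 10.02 at 2 mg/kg, against 7.89, 9.10 and 6.43 in saline. Cxcl2, a neutrophil attractant, had 9.20, 7.84 and 9.75 at 2 mg/kg, against 9.16, 6.27 and 7.60 in saline. In both genes replicate 2 was the lowest treated array, and both overlapped. Ccl20 had -0.36 ± 0.59. Of the 4 interferon-stimulated genes Isg20, an exonuclease gene, was apart, with 9.78, 9.49 and 8.97 at 2 mg/kg, against 8.40, 8.82 and 8.86 in saline. That is 25.0% of the list, beside 14.5% of named genes and 6.55% of all probes apart and higher. Irf1, Rsad2 and Oasl overlapped, at 0.71 ± 0.36, 0.00 ± 0.56 and -0.68 ± 0.47. The death receptor gene Tnfrsf1a and the apoptosis-inducing factor gene Aifm1 stood at -0.08 ± 0.28 and 0.13 ± 0.30.

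All 4 named genes of the integrated stress response and protein folding were apart, 3 higher and 1 lower, and 0 passed the threshold. Over all named genes 14.5% were apart and higher and 6.73% apart and lower, and over all probes 12.1% were apart in either direction. Beside Asns, the serine synthesis gene Psat1 had 15.52, 15.29 and 15.34 at 2 mg/kg, against 14.77, 14.61 and 15.21 in saline. Hsph1, a heat shock protein gene, had 12.37, 12.58 and 12.04 at 2 mg/kg, against 11.74, 11.68 and 11.70 in saline. Hyou1, a chaperone of the endoplasmic reticulum, had 7.45, 7.20 and 6.93 at 2 mg/kg, against 8.20, 8.39 and 8.63 in saline. The 3 differences were 0.52 ± 0.35, 0.62 ± 0.36 and -1.22 ± 0.42. Asns and Psat1, both ATF4 targets, parted between the doses: 10 mg/kg exceeded 2 mg/kg by 2.29 for Asns and lay at -3.09 for Psat1 (limma adjusted p = 0.00718 and 0.000166).

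Of 6 glutathione and Nrf2-responsive genes 4 were higher and 2 lower, with a median of 0.25 and 0 calls. Gpx2, which encodes a glutathione peroxidase, had 9.58, 9.56 and 10.34 at 2 mg/kg, against 11.40, 10.50 and 10.75 in saline. It was apart and lower, by -1.05 ± 0.35, with an interval of -1.80 to -0.31. Gsr, the glutathione reductase gene, had 14.46, 14.56 and 13.91 at 2 mg/kg, against 13.85, 13.26 and 13.59 in saline, and was apart and higher at 0.75 ± 0.47. Gss, Gsta2, Gstt2 and Osgin1 overlapped, between -0.26 and 0.52. Thus 16.7% of the list was apart and higher, beside 14.5% of named genes and 6.55% of all probes. Another 16.7% was apart and lower, beside 6.73% of named genes and 5.59% of all probes.

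All 10 named amino acid transporters had positive differences, with a median of 0.29 and a range of 0.08 to 0.77, and 0 passed the threshold. Of all 401 named genes 245 (61.1%) had positive differences, with a median of 0.12. Slc6a6, the taurine transporter gene, had 11.53, 11.35 and 11.80 at 2 mg/kg, against 11.10, 10.72 and 10.55 in saline. Slc7a9, a subunit of the cystine transporter, had 14.67, 14.33 and 14.47 at 2 mg/kg, against 13.52, 14.17 and 13.98 in saline. Its partner Slc3a1 had 0.60 ± 0.37, with replicate 1 of saline above the lowest treated array. Slc6a6 and Slc7a9 were apart (20.0% of the list, beside 14.5% of named genes and 6.55% of all probes), and the other 8 overlapped. The count of 10 was the same with median centring, without scaling and in the series table, with medians of 0.22 to 0.36. These settings rescale the same arrays. Of the 6 phosphate, sulfate and dicarboxylate carriers 5 were higher, among them the sulfate transporter gene Slc13a1 at 0.67 ± 0.37. In that list 0 were apart, beside 12.1% of all probes in either direction. Pdzk1, a scaffold of brush border transporters, had 18.18, 18.11 and 18.01 at 2 mg/kg, against 17.88, 17.64 and 18.06 in saline.

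Drug carriers beside Slc22a7 overlapped between the groups. Slc22a7, apart and lower, made 25.0% of the list, beside 6.73% of named genes and 5.59% of all probes. Slc22a6, the gene of the basolateral organic anion exchanger OAT1, had 17.56, 17.78 and 16.83 at 2 mg/kg, against 17.34, 17.27 and 18.14 in saline. Slc22a5, which encodes the carnitine transporter OCTN2, had 16.09, 16.24 and 16.00 at 2 mg/kg, against 16.22, 15.71 and 16.06 in saline, and the 95% interval of its difference was -0.47 to 0.69. Both overlapped. Slc22a25 had 0.40 ± 0.53. Among genes of water and sugar handling, the water channel genes Aqp1 and Aqp7 had 0.50 ± 0.40 and 0.47 ± 0.34, and the inositol oxygenase gene Miox -0.12 ± 0.32.

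Among 16 genes of amino acid and amine catabolism 13 were higher and 3 lower, with a median of 0.30, and 12 were higher without scaling. Of the 16, 4 (25.0%) were higher without overlap, beside 14.5% of named genes and 6.55% of all probes. Gatm, which makes the creatine precursor guanidinoacetate, had 17.62, 17.84 and 17.52 at 2 mg/kg, against 15.62, 16.74 and 17.32 in saline. Acmsd, an enzyme that diverts tryptophan catabolism from NAD synthesis, had 14.77, 14.77 and 13.96 at 2 mg/kg, against 13.11, 13.92 and 13.93 in saline. Ddc, the dopa decarboxylase gene, had 14.14, 13.94 and 14.01 at 2 mg/kg, against 12.94, 13.37 and 13.61 in saline. The differences were 1.10 ± 0.47, 0.85 ± 0.59 and 0.73 ± 0.48, and in Gatm and Ddc the treated arrays spanned a narrower range than the saline arrays. Of 8 genes of xenobiotic metabolism 7 were higher (6 without scaling) and 4 were apart and higher, with a median of 0.54. Of all 401 named genes 245 were higher (213 without scaling) and 14.5% were apart and higher. Ugdh, which makes UDP-glucuronate, had 15.78, 16.04 and 15.67 at 2 mg/kg, against 15.19, 14.79 and 15.36 in saline. The flavin monooxygenase genes Fmo4 and Fmo2 had 0.88 ± 0.43 and 0.65 ± 0.31. None of the genes of these lists passed the threshold.

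Genes of fuel metabolism overlapped between the groups. The gluconeogenesis genes had a median of 0.34 over 5 members, with Glud1, the glutamate dehydrogenase gene, at 0.62 ± 0.36 and Pc, the pyruvate carboxylase gene, at -0.10 ± 0.45. Fbp1, a key enzyme of that pathway, had 17.22, 17.50 and 17.75 at 2 mg/kg, against 17.37, 17.11 and 16.97 in saline. The 9 genes of fatty acid uptake and oxidation had a median of 0.16, a range of -0.38 to 0.86 and 0 members apart. Over all probes only 12.1% were apart in either direction, so overlap was the common case. The respiratory complex I genes Ndufs1 and Ndufv1 had 0.20 ± 0.31 and 0.12 ± 0.29. Of 7 hormone receptor and vitamin D genes the thyroid hormone receptor gene Thrb was apart, with 9.70, 9.60 and 9.74 at 2 mg/kg, against 10.11, 10.14 and 10.58 in saline. Hsd11b1, which activates glucocorticoids, was also apart and lower, at -0.21. These 2 made 28.6% of the list, beside 6.73% of named genes and 5.59% of all probes apart and lower. The prolactin receptor gene Prlr had 0.83 ± 0.42 and the parathyroid hormone receptor gene Pth1r -0.51 ± 0.37.

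The doses were compared directly, with the 10 mg/kg arrays set against the 2 mg/kg arrays. It called 1711 of 26601 probes (6.43%), 707 higher and 1004 lower at 10 mg/kg. Median centring gave 352 higher and 973 lower, and unscaled values gave 142 higher and 868 lower. The total was 952 without 2 mg/kg replicate 1 and 951 without 2 mg/kg replicate 2. Of the 25 named carriers in the amino acid, phosphate, sugar and bicarbonate lists 21 were called lower at 10 mg/kg and 0 higher, and all 16 genes of amino acid and amine catabolism were called lower. Of all probes 3.77% were called lower, but of the named genes, from which these lists are drawn, 203 of 401 (50.6%) were. Because the 2 mg/kg arrays enter this test and the comparison with saline with opposite signs, the values of the 3 groups are given side by side.

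**Figure D4:**
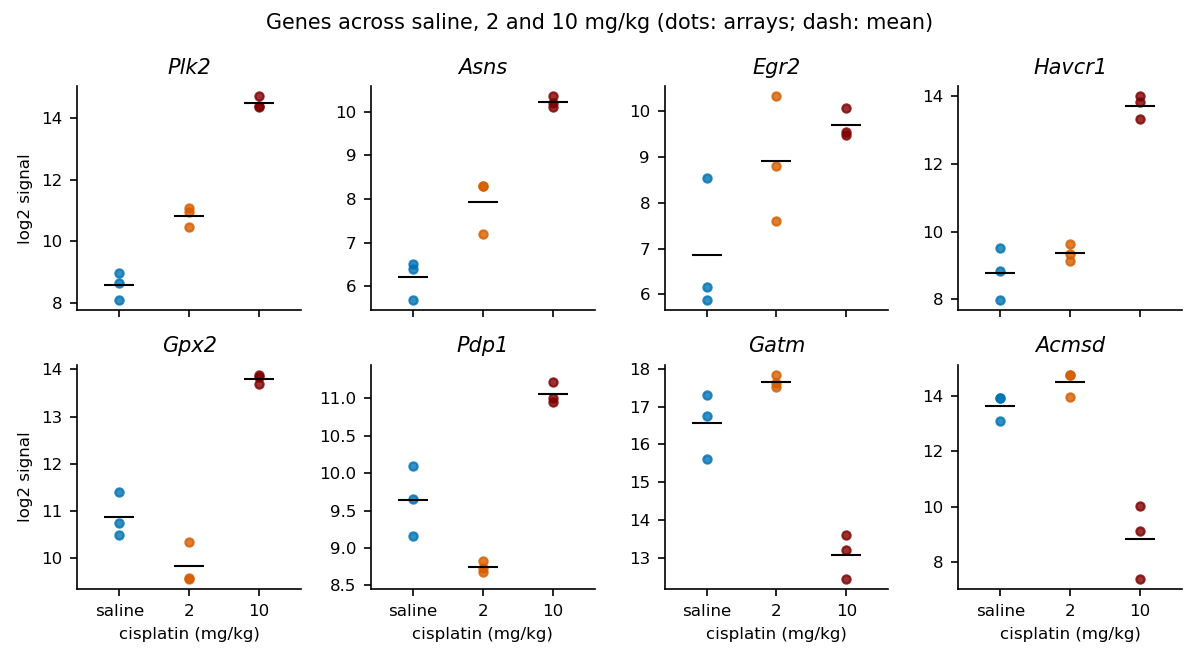
Log2 signal (y axes, quantile normalized, each with its own range) of 8 genes in tubules after saline, 2 mg/kg and 10 mg/kg cisplatin (x axes), with dots for arrays and dashes for means of 3 arrays. Plk2 and Asns have higher means at each dose, and Havcr1 is high at 10 mg/kg alone. Gpx2 and Pdp1 have their lowest means at 2 mg/kg, and Gatm and Acmsd their highest. None of these 8 genes passed the test of 2 mg/kg against saline over all probes. Plk2, Asns, Gpx2, Pdp1 and Gatm were named for their 2 mg/kg differences from saline, so that choice may enlarge these differences.

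Some genes had their extreme mean at the lower dose. Gpx2 averaged 10.88 in saline, 9.83 at 2 mg/kg and 13.80 at 10 mg/kg, and 10 mg/kg exceeded 2 mg/kg by 3.97 ± 0.35 (limma adjusted p = 2.65e-05). Pdp1, a phosphatase that activates pyruvate dehydrogenase, had 9.16, 10.10 and 9.66 in saline, 8.73, 8.68 and 8.82 at 2 mg/kg, and 10.95, 11.01 and 11.22 at 10 mg/kg. The calcium channel gene Trpv6 had 7.50, 7.24 and 7.86 in saline and 6.36, 7.03 and 6.69 at 2 mg/kg, and averaged 9.17 ± 0.24 at 10 mg/kg (SD, n = 3). The steps between doses were 2.32 ± 0.40 and 2.47 ± 0.34 (limma adjusted p = 0.00281 and 0.000634). In the other direction, Gatm was lower at 10 mg/kg than at 2 mg/kg by a difference of -4.57 ± 0.47 and Acmsd by -5.66 ± 0.59 (both limma adjusted p = 9.5e-05). For these 5 genes the comparison of 2 mg/kg with saline itself did not pass, so an extreme at the lower dose was not established by the test. Gpx2, Pdp1 and Trpv6 were among the genes named for low 2 mg/kg arrays, and Gatm was named for its small p at 2 mg/kg. Acmsd was in the fixed set, chosen with earlier results of these data known. These choices may enlarge the steps between doses of all 5 genes. Against saline, 10 mg/kg differed by 2.92 ± 0.35 for Gpx2, -3.46 ± 0.47 for Gatm and -4.81 ± 0.59 for Acmsd.

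Among probes without a gene symbol, those of smallest p showed the same range of sizes. Probe 21408300 had 9.22, 8.77 and 9.24 at 2 mg/kg, against 11.62, 11.19 and 10.80 in saline, and 8.28, 6.86 and 6.76 at 10 mg/kg. Probe 21461320 had 7.30, 6.74 and 7.97 at 2 mg/kg, against 9.06, 9.10 and 9.18 in saline. Probe 21290465 had 10.64, 10.92 and 10.46 at 2 mg/kg, against 9.30, 8.44 and 9.33 in saline. These 3 belong to the 23 probes called in the series table. Probe 21184490 had 8.58 and 9.50 on the 2 arrays that listed it at 2 mg/kg, against 6.98, 6.97 and 6.65 in saline.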

How the data were processed

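Transcript levels of 15 arrays were taken from the array files. Per the labels' protocols, total RNA was labelled with digoxigenin and hybridised to 1-colour arrays. The deposited array files hold 1 linear intensity per probe, with background correction, spot filter and software unstated. The authors' series table, a ratio of intensity to 1 constant per array as found by comparison with the array files, holds 1219 probes.

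The log2 of each intensity was quantile normalized across arrays (limma 3.58.1, R 4.3.3), without background correction, since no background column exists. A probe needed 2 or more values per group, which left 26601 probes and dropped 256. Group means over 15 arrays were estimated by lmFit. Two-sided eBayes p-values were adjusted by Benjamini-Hochberg across these probes (threshold 0.05), with 10 residual and 3.92 prior degrees of freedom. Precision is limited by the 3 arrays per group. The fit was checked on simulated data with independent normal noise per probe. That check does not cover deviations shared by the probes of an array.

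Of 26857 probes 401 carried a single gene symbol. The 2 probes with several symbols and the 26454 with none stay unnamed. All 401 matched RefSeq (GRCr8) by Entrez identifier. Named genes are the 10 largest positive and 10 largest negative differences among genes whose groups did not overlap, up to 3 members of smallest p of each list, and a fixed set of injury, stress, transport and macrophage genes, 83 in all. Further genes are named, after their values were seen, to complete a list. Of probes without a symbol, the 2 of smallest p in each direction are given. Of 597 genes on 30 lists 118 had a named probe, and 7 lists had none. The members, lists and rules were chosen with earlier results of these data known. Same-numbered replicates of both groups did not deviate together (correlations of -0.144 to 0.007), so numbers were not used as pairs. Alternatives varied scaling, offset (50), arrays, weights, variance prior, filters and the series table.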

Additional observations from a re-analysis of the deposited data

How the results depend on the processing

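The count of 0 probes at 2 mg/kg against saline was obtained in 15 of 18 alternatives, with a smallest adjusted p of 0.148 among these (array weights, where 2320 probes had an unadjusted limma p under the threshold). It was 23 in the series table and 3 with that table's probes quantile-normalized, a setting chosen after seeing the data. The range was 0 to 1 when 1 array of either group was left out. The single call came without 2 mg/kg replicate 3, in a probe without a symbol that had 9.39, 9.43 and 12.99 at 2 mg/kg, against 12.67, 13.14 and 12.61 in saline. Between 10 and 2 mg/kg, 1711 calls became 1010 without scaling, 1094 with only the 6 arrays compared, 3085 with array weights, 1094 with the replicate block, 2588 among probes above the median signal, 956 in the series table and 926 with its probes quantile-normalized, and 951 to 1488 when 1 array was left out. The cause of these shifts was not tested, and some of these settings also use fewer probes or arrays. The block left the 2 mg/kg count at 0, and 1 of 3 treated arrays correlated best with its own number. Of 1486 recomputed values of the 83 named genes, 2 gained a call (Plk2 and Asns, series table), 6 moved by more than the spread between replicates, and 44 had the other sign, all in genes whose difference was within 1 standard error. Without a background measure, dim signals have no known floor.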
